A study of Homo sapiens with 6 samples.

Results

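The 6 genes described here, of 57773 in the table, are C19orf77, PPP2R4, FLOT2, WDR83OS, AAGAB and FLOT1. C19orf77 encodes a small integral membrane protein, and the others encode regulators of membrane traffic, membrane protein insertion and phosphatase activity. The genes were chosen by measured values. C19orf77, PPP2R4, FLOT2, WDR83OS and AAGAB were picked because their FPKM was much lower after SMARCA4 depletion and they lie outside the main pathways that changed, and FLOT1 was added as the paralog of FLOT2. All 6 were found in the table, each in 1 row, and all 6 passed the filter on low values. The differences between groups are therefore given as a description, with no p-value. No numerical threshold was set in choosing them. On the log2(FPKM + 1) scale C19orf77, PPP2R4, FLOT2, WDR83OS and AAGAB held places 1, 2, 7, 10 and 19 from the lowest of 11123 genes, and FLOT1 held place 1947. The gene just before AAGAB was CDKN1C (-1.47) and the gene just after it PTMA (-1.44), against -1.45 for AAGAB.

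The libraries came from Hep3B, an established human hepatocellular carcinoma cell line, and total RNA was sequenced. The si-SMARCA4 group (3 libraries) had been transfected with siRNA against SMARCA4, which encodes BRG1, a chromatin-remodelling ATPase of SWI/SNF, and the si-Cont group (3 libraries) with control siRNA. Both groups were thus transfected cells of 1 line. The labels do not say whether replicates were separate cultures, so p-values speak only for the spread between these libraries, which may be technical. The authors' values are FPKM, counts scaled to gene length and library size. The libraries held 19084308 to 22719014 reads over genes. SMARCA4 itself stood at 3.86 ± 0.128 FPKM in si-SMARCA4 and 17.3 ± 1.98 FPKM in si-Cont (SD, n = 3 each). The hepatocyte and hepatoma markers ALB, AFP, APOA1, APOB, TTR, HNF4A, SERPINA1 and FGB all passed the filter. ALB, AFP, APOA1, APOB and HNF4A were called lower and TTR, SERPINA1 and FGB higher by limma. Their summed level, most of it ALB, was 2212 to 2336 FPKM in si-SMARCA4 and 3115 to 3480 FPKM in si-Cont. The endothelial markers VWF, CDH5 and KDR were listed at 0, and the leukocyte markers PTPRC and CD3E averaged at most 0.0395 FPKM in either group. Of the myeloid markers, LYZ stood at 16.0 and 16.4 FPKM in si-SMARCA4 and si-Cont and was not called. CD68 was lower, at 10.6 and 17.2 FPKM. Of 5 fibroblast and stellate markers only LUM passed the filter, and it was higher, at 11.4 and 7.25 FPKM. Of 3 cholangiocyte markers, KRT19 was lower, at 38.1 and 50.9 FPKM. SOX9 was not called, at 11.3 and 12.1 FPKM, and KRT7 averaged under the filter. All libraries came from 1 cell line, so these differences do not give shares of cell types. Bulk values also cannot tell a change in all cells from a change in some. The part of these marker differences in the results was not tested.

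Apart from C19orf77, the genes act at membranes or on a phosphatase. Flotillins, encoded by FLOT1 and FLOT2, are scaffold proteins of the SPFH family that assemble together on the inner face of the plasma membrane and on endosomes. AAGAB, also called p34, is a chaperone that holds the large and small adaptins while the clathrin adaptor complexes AP-1 and AP-2 are put together. WDR83OS, also called Asterix, forms with CCDC47 the PAT complex, which shields unfinished multipass membrane proteins in the endoplasmic reticulum. PPP2R4, named PTPA in current annotation, activates the catalytic subunit of protein phosphatase 2A (PP2A), a major serine/threonine phosphatase of most cells. C19orf77, named SMIM24 in current annotation, encodes a small integral membrane protein.

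Sequence matches are shown first, and some of the genes hold them while others do not. In an earlier analysis of the same libraries, the 7-base sequences CTGTCCA and TGTCCAA, which overlap in CTGTCCAA, were picked since transcripts with them in the 3′ UTR were lower on average. They were searched here on the transcript strand only, in the coding transcripts of GENCODE v29. Because the sequences were picked on these data, a match is a description and no separate evidence. Each line shows up to 20 bases before the 8 positions of the match and the next 2, read 5′ to 3′ from the transcript, with matching bases in capitals.

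PPP2R4, first site: ccctgggcctgaggccccctgTGTCCAAgc
PPP2R4, second site: tgtcctcccacctccctgaaCTGTCCAttg
FLOT2, first site: tgtcttcctgtctctcctgtCTGTCCAcct
FLOT2, second site: ccttgaagttctctgtgcatCTGTCCAtcc
WDR83OS, coding site: aaatgatgagtagcttcatgCTGTCCAtct
WDR83OS, 3′ UTR site: gcctgctgctgggggagatgCTGTCCAtgt
AAGAB, first coding site: tactgcagagattgcagaatCTGTCCAAgc
AAGAB, second coding site: atctacaggagtaaagcgaatTGTCCAAgc
SMARCA4, coding site: tcatcgtgcctctctcaacgCTGTCCAAct

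The matches of PPP2R4 began 626 and 1032 bases after the coding sequence (chr9:129148090-129148097 and chr9:129148496-129148503, GRCh38, forward strand), in the 3′ UTR of 9 and 8 of 26 coding transcripts. Those of FLOT2 began 167 and 386 bases after the coding sequence (chr17:28880387-28880394 and chr17:28880168-28880175, reverse strand). WDR83OS held a match in the coding sequence (chr19:12668417-12668424, reverse strand), whose window spans an exon junction, and another 216 bases into the 3′ UTR (chr19:12668136-12668143). In a further coding transcript of WDR83OS the first of these lies in the 3′ UTR. AAGAB held no match in a 3′ UTR of 1788 bases. It carried the full 8-base sequence at chr15:67236660-67236667 (reverse strand) in all 4 coding transcripts, in the coding sequence of 1 of them, and a 7-base match at chr15:67231857-67231864 in the coding sequence of all 4. FLOT1 held no 7-base match in any coding transcript, although its 3′ UTR of 407 bases held the shorter TGTCCA at 1 position. C19orf77 held neither the 7-base sequences nor TGTCCA in a 3′ UTR of 857 bases, and no 7-base match elsewhere in its coding transcripts.

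A 7-base match was present in the longest 3′ UTR of 20.5% of 10295 genes searched. Among 3′ UTRs of similar length, where the shorter was at least 0.8 times the longer, the share was 17.4% for PPP2R4, 14.9% for FLOT2, 5.01% for WDR83OS, 21.8% for AAGAB, 6.73% for FLOT1 and 12.3% for C19orf77. SMARCA4, the siRNA's target, carried the full 8 bases in its coding sequence (chr19:11018961-11018968, forward strand, in 30 of 36 coding transcripts), in a window that spans an exon junction. In the 20 bases before the match, between 2 and 9 bases were the same as in SMARCA4 in the other windows printed. SMARCA4 also held 2 further 7-base matches, 1 of them coding. Small RNAs can lower transcripts that pair with their seed, mostly through 3′ UTRs, but the sources used here give no siRNA sequence, and the part of these matches in the levels was not tested.

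**Figure D1:**
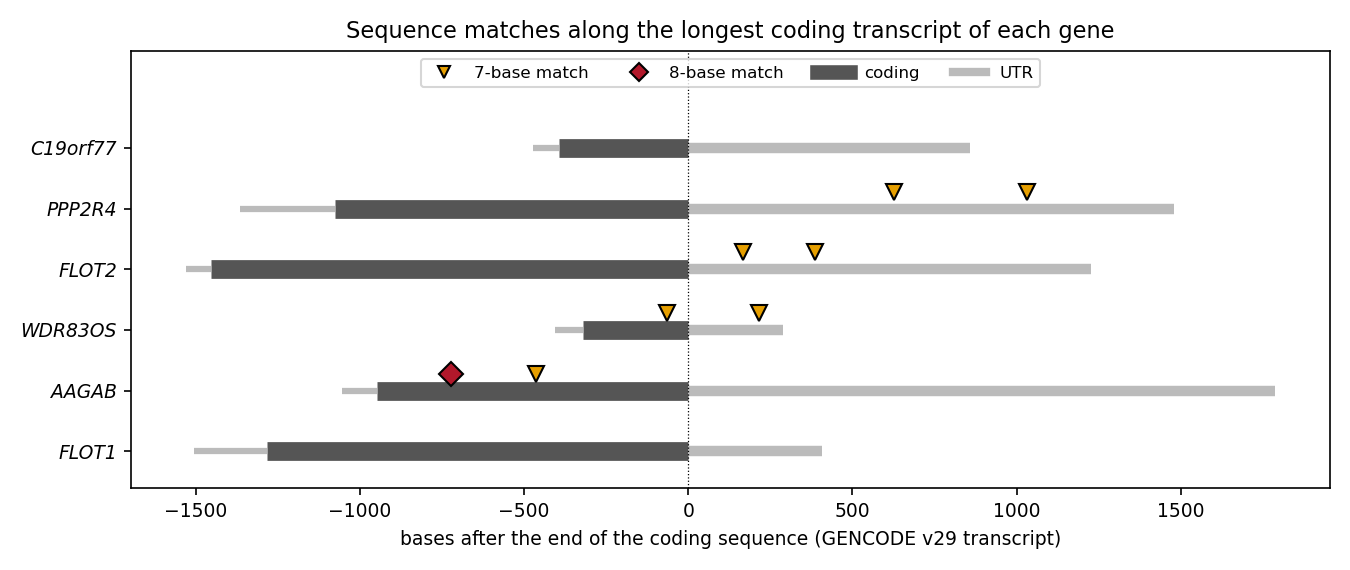
Matches to the 7-base sequences (triangles) and to the full 8-base sequence (diamond) along the longest coding transcript of each gene in GENCODE v29, with bases after the end of the coding sequence on the x axis, coding sequence as a thick dark bar and UTRs as thinner grey bars. PPP2R4 and FLOT2 hold 2 matches each in the 3′ UTR, WDR83OS holds 1 there and 1 in the coding sequence, AAGAB holds its 2 in the coding sequence, and C19orf77 and FLOT1 hold 0.

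C19orf77 had the lowest log2 fold change of all genes tested. C19orf77 (ENSG00000095932, chr19:3473986-3480542, reverse strand) stood at 1.32, 1.63 and 1.15 FPKM in si-SMARCA4 replicates 1 to 3, against 11.7, 10.9 and 12.6 FPKM in si-Cont. The si-SMARCA4 libraries all lay far below the si-Cont libraries, with no overlap. The means were 1.37 ± 0.240 and 11.7 ± 0.869 FPKM (SD, n = 3 each), so the si-SMARCA4 mean was 11.6% of the si-Cont mean. The log2 fold change was -2.43 (SE 0.07) on the log2(FPKM + 1) scale. This scale draws in changes of low values, and in place of a pseudocount of 1 the value was -3.02 with 0.1 and -1.39 with 5. The reads behind these levels were few, at 48, 57 and 38 in si-SMARCA4 and 415, 342 and 428 in si-Cont. Counting error alone is 16.2% for 38 reads, close to the coefficient of variation of 17.6% between the si-SMARCA4 libraries. The nearest tested genes on either side did not pass the test: NFIC, a transcription factor, stood at 2.01 and 2.18 FPKM in si-SMARCA4 and si-Cont, and DOHH, deoxyhypusine hydroxylase, at 7.64 and 7.32 FPKM. DOHH was called higher with upper-quartile scaling (adjusted p = 0.0467) and voom (adjusted p = 0.0405), and NFIC without si-Cont replicate 2 (adjusted p = 0.0331), all by limma.

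PPP2R4, the PP2A activator, came next. PPP2R4 (ENSG00000119383, chr9:129110950-129148946, forward strand) stood at 2.53, 2.35 and 2.57 FPKM in si-SMARCA4, against 13.6, 12.1 and 13.7 FPKM in si-Cont. The libraries within each group lay close together and the groups were far apart. The means were 2.48 ± 0.119 FPKM in si-SMARCA4 and 13.2 ± 0.928 FPKM in si-Cont (SD, n = 3 each), a level of 18.9% of si-Cont, with a log2 fold change of -2.02 (SE 0.06), or -1.28 with a pseudocount of 5. These values rest on 451 to 505 reads in si-SMARCA4 and 2080 to 2655 in si-Cont. The gene overlaps CRAT, carnitine acetyltransferase, by 240 bases on the opposite strand. CRAT was lower too, at 3.35 against 4.24 FPKM (limma adjusted p = 0.00298), a far smaller difference. IER5L, on the other side, stood at 4.87 and 4.66 FPKM and did not pass.

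The catalytic subunits on which PPP2R4 acts did not share its difference. PPP2CB was higher, at 16.3 ± 0.366 FPKM in si-SMARCA4 and 10.8 ± 0.993 FPKM in si-Cont (limma adjusted p = 2.79e-05, log2 fold change 0.56), and PPP2CA did not pass, at 20.9 ± 0.214 and 20.2 ± 1.12 FPKM. Within a library, PPP2R4 had 0.0680, 0.0625 and 0.0691 FPKM for each FPKM of PPP2CA and PPP2CB together in si-SMARCA4, against 0.414, 0.421 and 0.438 in si-Cont. A ratio within a library does not depend on the library's scaling. The scaffold subunit PPP2R1A fell to 23.8 FPKM in si-SMARCA4, against 31.6 FPKM in si-Cont (limma adjusted p = 0.00014), while its paralog PPP2R1B stood at 10.5 and 10.4 FPKM. Other regulators of the catalytic subunit did not pass: the methyltransferase LCMT1 stood at 5.81 and 6.41 FPKM, the methylesterase PPME1 at 2.44 and 2.74 FPKM, the chaperone IGBP1 at 13.7 and 14.4 FPKM, and TIPRL at 33.9 and 32 FPKM in si-SMARCA4 and si-Cont. Some of these calls depended on settings. Limma called PPP2CA (adjusted p = 0.0145) and TIPRL (adjusted p = 0.0172) higher with upper-quartile scaling, and LCMT1 (adjusted p = 0.00821) and PPME1 (adjusted p = 0.0116) lower without si-Cont replicate 2.

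Of 28 PP2A subunits and regulators listed, PPP2R4 left out, 24 were tested, of which 7 were higher and 6 lower. Over all 11123 genes tested, 22.4% were called higher and 33.6% lower by limma at an adjusted p of 0.05, so that the list's 29.2% higher and 25% lower lie near the background. The lowest log2 fold change on this list was -0.39 and the median -0.06, against -0.04 for all genes. The count of lower genes was 3 with upper-quartile scaling, with voom on recovered reads, and without si-SMARCA4 replicate 1 or 3. PPP2R2D, a B-type regulatory subunit, was higher at 3.20 against 2.59 FPKM (limma adjusted p = 0.00167).

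FLOT2 and FLOT1 differed in how much lower they were. FLOT2 (ENSG00000132589, chr17:28879335-28897679, reverse strand) stood at 3.97, 3.77 and 4.15 FPKM in si-SMARCA4, against 17.0, 16.2 and 18.4 FPKM in si-Cont. FLOT1 (ENSG00000137312, chr6:30727709-30742733, reverse strand) stood at 27.8, 25.7 and 28.7 FPKM in si-SMARCA4, against 35, 30.6 and 36.3 FPKM in si-Cont. Neither gene's groups overlapped, but FLOT1's highest si-SMARCA4 library came near its lowest si-Cont library. FLOT2 averaged 3.96 ± 0.191 FPKM in si-SMARCA4 and 17.2 ± 1.07 FPKM in si-Cont, and FLOT1 averaged 27.4 ± 1.51 and 34.0 ± 3.01 FPKM (SD, n = 3 each). The si-SMARCA4 level was thus 23.1% of si-Cont for FLOT2 and 80.6% for FLOT1, with log2 fold changes of -1.87 (SE 0.06) and -0.30 (SE 0.07). FLOT2 was read 409 to 448 times in si-SMARCA4 and 1579 to 1926 times in si-Cont, and FLOT1 2665 to 2993 and 2839 to 3676 times.

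The balance of the flotillin transcripts can be read within each library. Per FPKM of FLOT1 there were 0.143, 0.147 and 0.145 FPKM of FLOT2 in si-SMARCA4, against 0.485, 0.531 and 0.505 in si-Cont. The means were 0.145 ± 0.00181 and 0.507 ± 0.0234 (SD, n = 3 each), a si-SMARCA4 ratio of 0.286 times that of si-Cont. The replicates agreed closely in si-SMARCA4, although its FPKM values for each gene varied by 4.81% and 5.52%. Over 16 alternative settings the log2 fold change of FLOT1 ranged from -0.37 to -0.22, and its level was 82.6% of si-Cont after median-ratio scaling and 84.7% after upper-quartile scaling. FLOT2 ranged from -2.09 to -1.31 over the same settings, the ends being pseudocounts of 0.1 and 5.

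The nearest tested genes of the flotillins moved less than FLOT2. DHRS13, 101 bases from FLOT2 and a short-chain dehydrogenase gene, stood at 3.61 against 4.61 FPKM, and ERAL1, a mitochondrial rRNA chaperone, at 12.6 against 15.8 FPKM, both lower (limma adjusted p = 0.00294 and 0.00137). Beside FLOT1, the tubulin gene TUBB was lower, at 486 against 694 FPKM (limma adjusted p = 0.000218), and the early response gene IER3 higher, at 83.0 against 67.1 FPKM (limma adjusted p = 0.00251).

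Of 18 other SPFH proteins and caveolar coat proteins, 12 were tested, with 1 higher (8.33%) and 6 lower (50%), against 22.4% and 33.6% of all genes. The prohibitins PHB and PHB2, SPFH proteins of the inner mitochondrial membrane, fell to 31.6 and 92.3 FPKM in si-SMARCA4, against 38 and 111 FPKM in si-Cont (limma adjusted p = 0.00755 and 0.00801). STOML2 was lower at 38 against 42.6 FPKM (limma adjusted p = 0.0347), a call lost in 7 of 16 alternatives, among them the omission of any library but si-Cont replicate 2. Stomatin, encoded by STOM, did not pass, at 17.7 and 17.0 FPKM, but was called higher with upper-quartile scaling (limma adjusted p = 0.0184). The caveolins CAV1 and CAV2, which coat caveolae, did not pass either, at 3.90 and 3.796 FPKM and at 4.67 and 4.58 FPKM. Their coat partner PTRF was higher, at 21.9 against 18.9 FPKM (limma adjusted p = 0.0102), while SDPR, another coat protein, fell to 6.34 FPKM in si-SMARCA4, against 8.84 FPKM in si-Cont (limma adjusted p = 0.000119). PACSIN2, a membrane-bending protein, had the lowest value of the list, at 16.2 against 23.0 FPKM (log2 fold change -0.48, limma adjusted p = 2.69e-05). The count of higher genes was 2 with median-ratio scaling and 3 with upper-quartile scaling or voom. The count of lower genes was 4 with voom.

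AAGAB (ENSG00000103591, chr15:67201033-67255195, reverse strand) stood at 6.48, 6.64 and 6.42 FPKM in si-SMARCA4, against 20.5, 17.6 and 20.4 FPKM in si-Cont. The si-SMARCA4 libraries were nearly alike, and all lay well under the lowest si-Cont library, replicate 2. The means were 6.51 ± 0.114 and 19.5 ± 1.65 FPKM (SD, n = 3 each), or 33.4% of si-Cont, with a log2 fold change of -1.45 (SE 0.06). AAGAB had 752 to 840 reads in si-SMARCA4 and 1967 to 2592 in si-Cont. Of its neighbours, SMAD3, a transducer of TGF-beta signals, rose to 7.04 FPKM in si-SMARCA4, against 5.55 FPKM in si-Cont (limma adjusted p = 0.000422), and C15orf61 did not pass, at 1.66 and 1.72 FPKM.

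The adaptins that AAGAB binds went both ways, by much less. AP1G1, the gamma subunit of AP-1, stood at 9.78 ± 0.261 against 11.9 ± 0.215 FPKM (limma adjusted p = 0.000677), and the alpha subunits of AP-2 at 5.56 against 7.33 FPKM for AP2A1 (limma adjusted p = 0.000333) and 5.13 against 5.92 FPKM for AP2A2 (limma adjusted p = 0.00735). The AP2A2 call was lost with upper-quartile scaling (adjusted p = 0.0501) and voom (adjusted p = 0.0595). Of the small subunits, AP2S1 was lower at 22.8 against 27.3 FPKM (limma adjusted p = 0.00362) and AP1S1 higher at 14.8 against 13.1 FPKM (limma adjusted p = 0.0413), a call lost in 6 of 16 alternatives. Per FPKM of AP1G1 there were 0.649, 0.674 and 0.677 FPKM of AAGAB in si-SMARCA4, against 1.69, 1.51 and 1.71 in si-Cont. Per FPKM of AP2A1 and AP2A2 together the means were 0.610 ± 0.0221 and 1.48 ± 0.178 (SD, n = 3 each).

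All 23 listed subunits of AP-1, AP-2 and clathrin and their helpers were tested, with 5 higher (21.7%) and 8 lower (34.8%), against 22.4% and 33.6% of all genes. The lowest was AP2M1, the cargo-binding subunit of AP-2, at 12.9 ± 0.175 against 22.3 ± 2.21 FPKM (log2 fold change -0.74, limma adjusted p = 6.44e-06). The highest was NECAP1, an AP-2 associated protein, at 11.5 against 7.22 FPKM (log2 fold change 0.61, limma adjusted p = 4.1e-06). AP1S3, another small subunit of AP-1, rose to 2.86 FPKM in si-SMARCA4, against 1.87 FPKM in si-Cont (limma adjusted p = 3.32e-05). The count of higher genes was 2 without a filter on low values and without si-SMARCA4 replicate 1 or 2, and 3 when genes under a mean FPKM of 5 were left out and without si-SMARCA4 replicate 3 or si-Cont replicate 3.

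WDR83OS (ENSG00000105583, chr19:12668071-12669489, reverse strand) stood at 5.28, 4.56 and 5.41 FPKM in si-SMARCA4, against 20, 18.0 and 23.0 FPKM in si-Cont. It had the highest coefficient of variation in si-Cont of the 6 genes, 12.5%, yet the groups were far from overlapping. The means were 5.08 ± 0.457 and 20.3 ± 2.54 FPKM (SD, n = 3 each), or 25% of si-Cont, with a log2 fold change of -1.81 (SE 0.08), from 394 to 474 reads in si-SMARCA4 and 1393 to 1925 in si-Cont.

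WDR83OS lies wholly inside WDR83, which is on the opposite strand, and the sources used here do not say whether counting used strand. The length behind its FPKM was 2656 bases, against 1419 bases for the whole gene in GENCODE v29, so the authors' gene model took in bases outside that interval. Reads of WDR83 and WDR83OS may therefore not be fully told apart. CTD-2192J16.24, on the same strand as WDR83OS, overlaps it by 1327 bases, so strand would not separate these 2. It averaged 0.0175 FPKM in si-SMARCA4 and 0.139 FPKM in si-Cont. WDR83 did not pass, at 2.67 ± 0.109 and 2.57 ± 0.387 FPKM, and DHPS, deoxyhypusine synthase and the next gene, stood at 9.62 and 9.08 FPKM. DHPS was called higher with voom (adjusted p = 0.0426). Per FPKM of WDR83 there were 1.89, 1.75 and 2.07 FPKM of WDR83OS in si-SMARCA4, against 7.96, 8.09 and 7.70 in si-Cont.

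**Figure D2:**
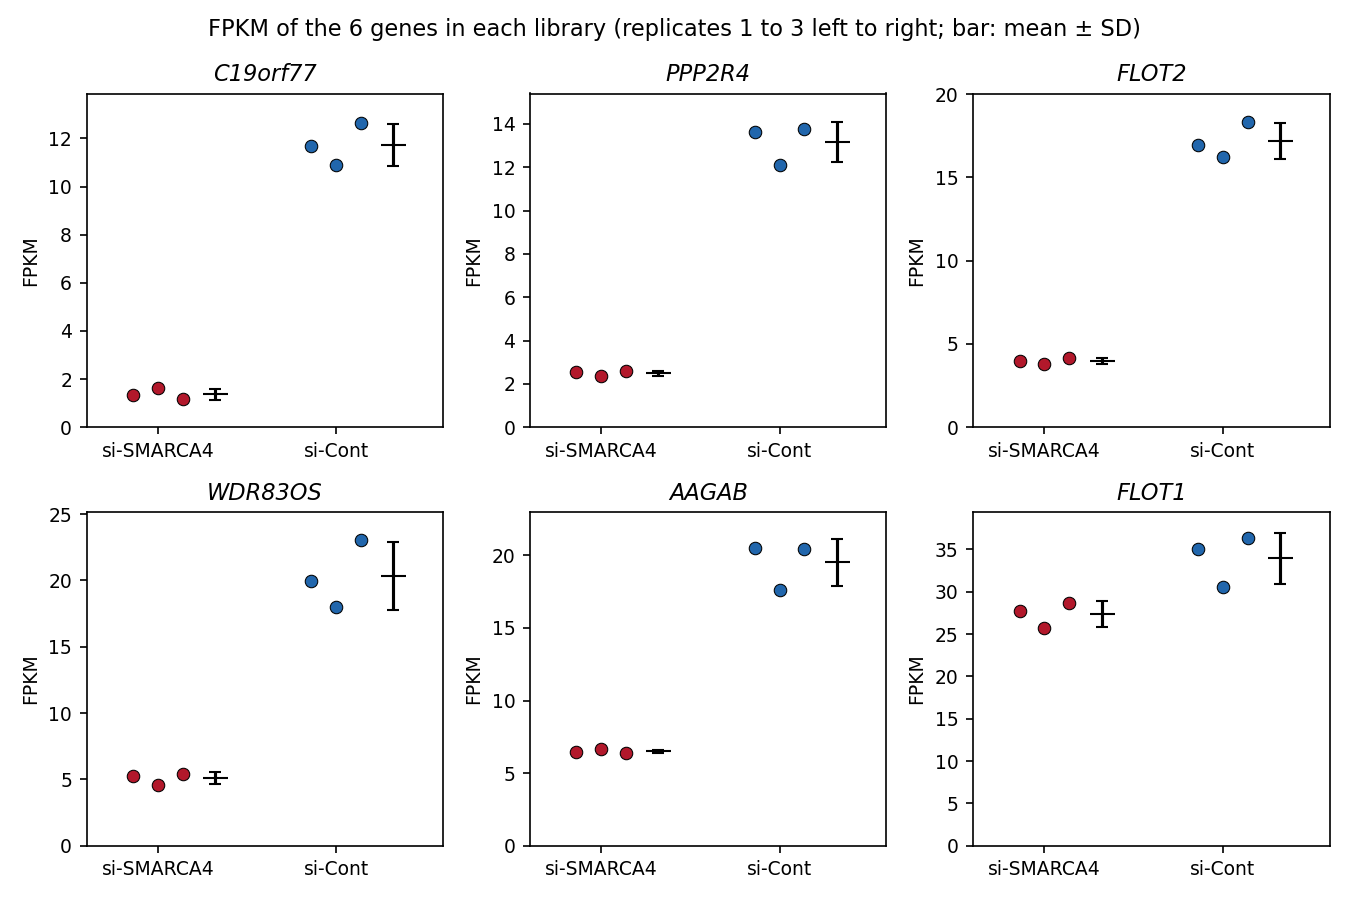
FPKM of the 6 genes in every library, si-SMARCA4 left of si-Cont, with points for replicates 1 to 3 from left to right and a bar for the mean ± SD. For C19orf77, PPP2R4, FLOT2, WDR83OS and AAGAB the si-SMARCA4 means lie at 11.6% to 33.4% of the si-Cont means, while that of FLOT1 lies at 80.6%.

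CCDC47, the partner of WDR83OS in the PAT complex, went the other way. It rose to 26.9 ± 0.998 FPKM in si-SMARCA4, against 22.4 ± 1.38 FPKM in si-Cont (limma adjusted p = 0.003, log2 fold change 0.26). Per FPKM of CCDC47 there were 0.188, 0.174 and 0.203 FPKM of WDR83OS in si-SMARCA4, against 0.836, 0.852 and 1.04 in si-Cont. Of the other factors that work beside the PAT complex on multipass proteins, TMEM147 was lower at 18.0 against 23.0 FPKM (limma adjusted p = 0.00207), and NCLN did not pass at 18.0 and 19 FPKM. TMCO1 did not pass either, at 41.8 and 38.8 FPKM, although it was called higher with median-ratio scaling (limma adjusted p = 0.0306), upper-quartile scaling and voom.

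**Figure D3:**
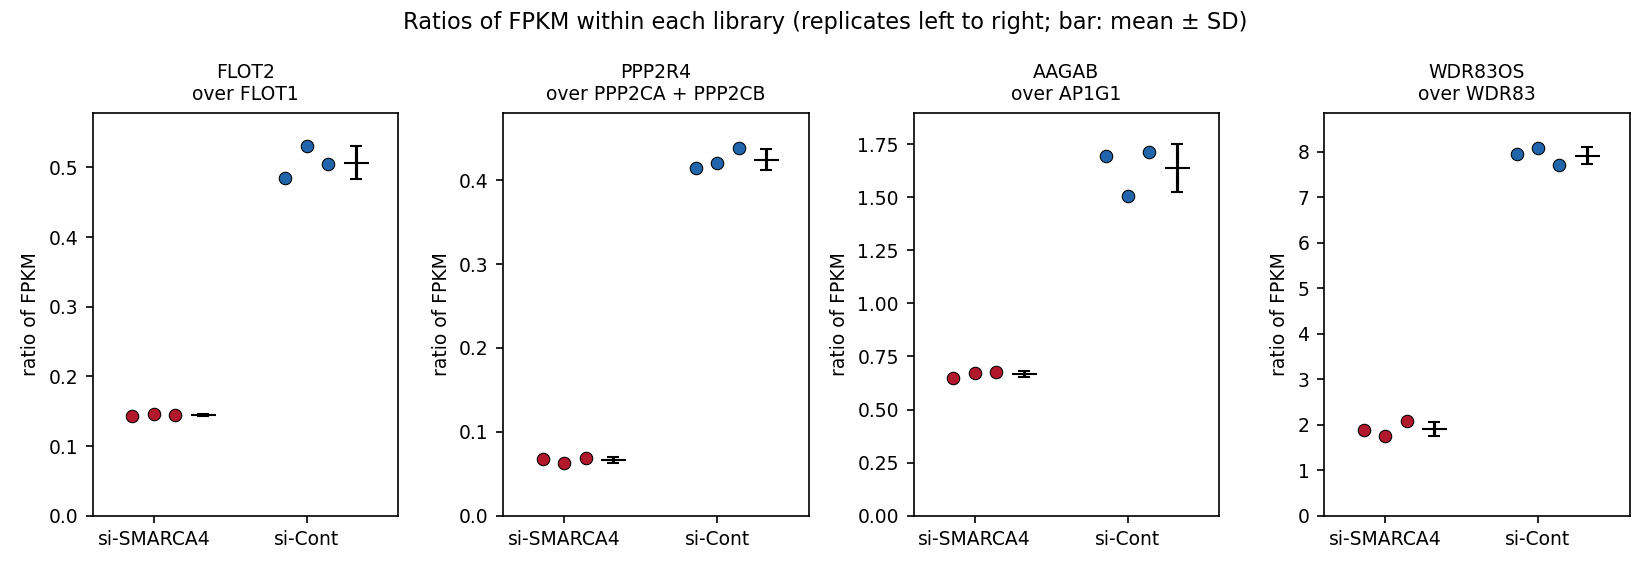
Ratios of FPKM within each library, si-SMARCA4 left of si-Cont, with points for replicates 1 to 3 and a bar for the mean ± SD. FLOT2 over FLOT1 averaged 0.145 and 0.507, PPP2R4 over PPP2CA + PPP2CB 0.0665 and 0.424, AAGAB over AP1G1 0.666 and 1.64, and WDR83OS over WDR83 1.90 and 7.92 in si-SMARCA4 and si-Cont.

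The last list, of 32 genes for protein insertion at the endoplasmic reticulum, takes in the general translocon and the route for tail-anchored proteins. Of these genes 31 were tested, with 6 higher (19.4%) and 13 lower (41.9%), against 22.4% and 33.6% of all genes. SEC61A1, the channel of the translocon, fell to 39.2 FPKM in si-SMARCA4, against 53.2 FPKM in si-Cont (limma adjusted p = 7.57e-05). SSR3, a subunit of the translocon-associated TRAP complex, was higher at 53.5 against 40.0 FPKM (limma adjusted p = 8.61e-05), as was CAMLG, a receptor for tail-anchored proteins, at 5.59 against 3.76 FPKM (limma adjusted p = 5.03e-05). No gene of the 4 lists had a log2 fold change as low as AAGAB, and the lowest of the 90 tested was AP2M1. AAGAB was chosen for its large fall and the lists leave the members out, so nothing is read from this.

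**Figure D4:**
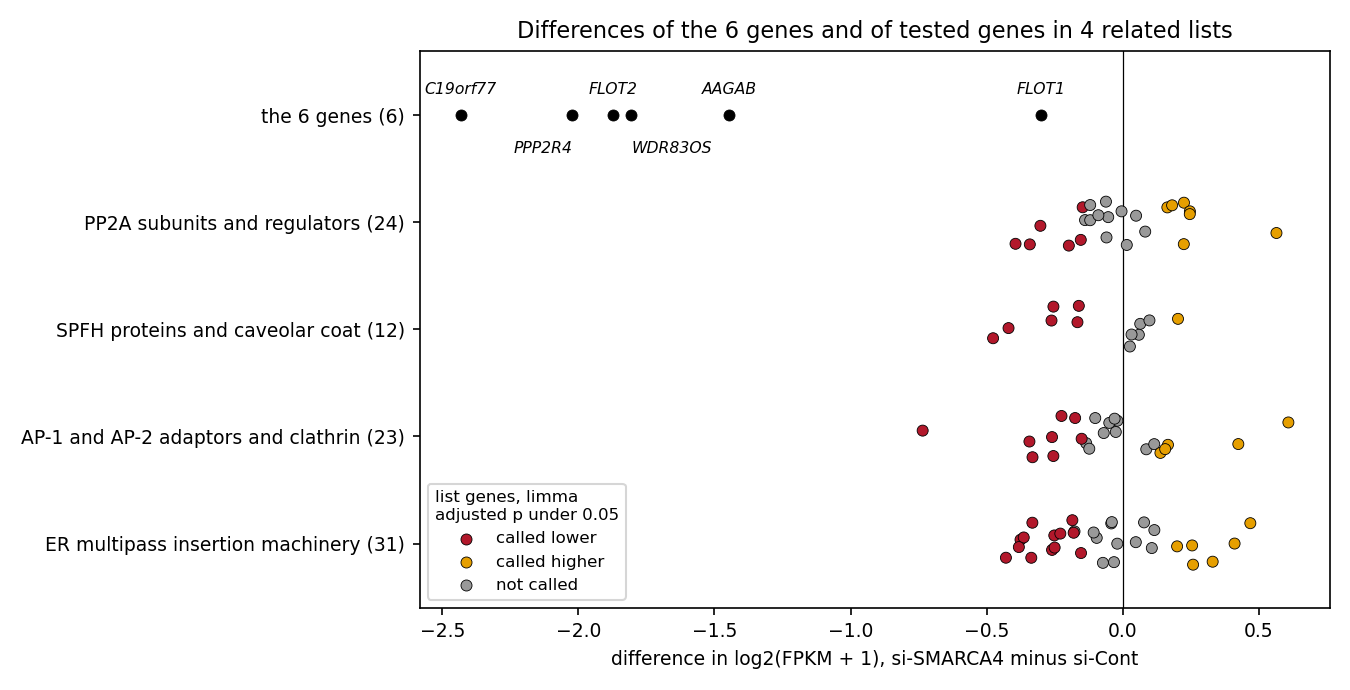
Difference in log2(FPKM + 1), si-SMARCA4 minus si-Cont, of the 6 genes (black, calls not shown) and of the tested genes in 4 related lists. List genes are red if called lower, orange if called higher and grey if not called, by limma at an adjusted p of 0.05. FLOT1, at -0.30, lies within the range of the lists from -0.74 to 0.61, and C19orf77, PPP2R4, FLOT2, WDR83OS and AAGAB lie from -2.43 to -1.45.

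Within si-SMARCA4 the 6 genes kept a clear order of level per length. FLOT1 was highest, followed by AAGAB, WDR83OS, FLOT2, PPP2R4 and C19orf77, and no neighbours in that order overlapped between libraries. In si-Cont the order was FLOT1, WDR83OS, AAGAB, FLOT2, PPP2R4 and C19orf77, where WDR83OS, AAGAB and FLOT2 overlapped with each other, as did PPP2R4 and C19orf77. In si-Cont all 6 genes were lowest in replicate 2, at 88.5% to 94.5% of their group mean. That library was low more widely, so its low place was not particular to these genes. Reads over genes made up 65.5% of the library size behind its FPKM, against 68.9% and 69.5% in si-Cont replicates 1 and 3. In si-SMARCA4 replicates 1 to 3 the share was lower still, at 64.3%, 62.8% and 63.8%. For the same share of reads over genes, FPKM is thus lower in si-SMARCA4 than in si-Cont. Voom, given below, used reads over genes as library size. After upper-quartile scaling FLOT2 was lowest in si-Cont replicate 1, at 16.2 against 16.6 FPKM in replicate 2. In si-SMARCA4 replicate 2 was lowest for PPP2R4, FLOT2, FLOT1 and WDR83OS, but highest for C19orf77 and AAGAB.

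All 6 genes were lower in every si-SMARCA4 library than in every si-Cont library, as were 36.6% of all genes tested, and limma placed all 6 among the 33.6% called lower. The genes were chosen on this contrast, so nothing is read from these counts. The split of calls over all genes, 2494 higher and 3733 lower, was 3424 and 3132 with upper-quartile scaling and 3829 and 2889 with voom on recovered reads.

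The genes with the most similar profiles were found by the smallest Euclidean distance over the 6 libraries, in log2(FPKM + 1) relative to the si-Cont mean. For PPP2R4 they were PSMA3, a proteasome core subunit (distance 0.113), and PCK2, mitochondrial phosphoenolpyruvate carboxykinase (0.166). For FLOT2 they were ABAT, a GABA transaminase (0.139), and PCK2 (0.180), and for WDR83OS again ABAT (0.213) and PCK2 (0.284). For AAGAB they were PTMA (0.0921), which has many processed copies so that its reads are uncertain, and SAPCD2 (0.116). C19orf77, the gene with the lowest log2 fold change, had no close match, with PSMA3 at 0.794 and PSMA4 at 0.873. The distance depends largely on the size of the difference, for which the members were chosen, so nothing is read from these likenesses. FLOT1 lay among many genes with small changes, nearest to ELP5 (0.0316) and RNF5 (0.0430). PSMA3, PSMA4, PCK2, ABAT and ELP5 hold the full 8-base sequence in the 3′ UTR, PTMA holds a 7-base match, and SAPCD2 and RNF5 hold none. Of all genes searched, 2.93% hold the 8-base sequence. The sequence was itself picked on low values in these libraries, and most of these genes were selected for a profile like that of the lowest genes, so nothing is read from the matches.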

How the data were processed

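RNA of 6 Hep3B libraries was sequenced, 3 of si-SMARCA4 and 3 of si-Cont, grouped by their titles. The deposited values are FPKM, made by the authors on hg19 per the submitters' processing notes; the sources used here name no aligner, counting program, annotation or strandedness. FPKM steps gave whole reads for 25119 of 25119 genes with a mean above 0 (tolerance 1e-08) at 1 length per gene, which gave the reads printed. They cover counting error only.

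The 11123 genes averaging 1 FPKM or more were compared on log2(FPKM + 1) with limma 3.58.1 in R 4.3.3 (trend, two-sided, Benjamini-Hochberg over all 11123, threshold 0.05). The members, the gene lists and the rule for named genes were chosen with earlier results of these data known. Named genes were the 6 members, SMARCA4, direct partners, the 3 smallest p of each list, nearest neighbours and the most similar profiles. Libraries with the same replicate number deviated together (correlations 0.215, 0.181 and 0.162), so the numbers may pair the samples. The main fit ignored this pairing, and all SEs and adjusted p-values printed come from fits without a replicate block. The test was tried on simulated data with known changes, where libraries were not paired and far fewer genes changed than were called here. Alternatives were other pseudocounts, filters and scalings, no trend, summed rows, voom with reads over genes as library size, a replicate block and leaving out each library. Transcript sequences and GRCh38 positions came from GENCODE v29, 3′ UTRs of at least 50 bases, and current symbols from the annotation by gene ID. Python 3.11.15 was used.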

Additional observations from a re-analysis of the deposited data

How the results depend on the processing

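The 6 members were lower in si-SMARCA4 under all 16 alternatives, though sizes depended on the pseudocount. The number of genes called, 6227 of 11123, was 3683 with a stricter filter (mean FPKM 5 or more), where fewer genes are tested, and 5174 to 7141 without 1 library each. With the replicate block it was 6760, and pairing changed no call of a named gene. Adaptor and clathrin genes called higher (5) numbered 3 with that stricter filter, 2 with no filter, and 2 to 4 without 1 library. PP2A genes called higher (7) numbered 4 with that stricter filter, and those called lower (6) numbered 3 with upper-quartile scaling, 3 with voom, and 3 to 8 without 1 library. SPFH and caveolar genes called higher (1) numbered 2 with median-ratio scaling and 3 with upper-quartile scaling and with voom. Apart from the stricter filter, the causes were not tested. C19orf77 rests on the fewest reads of the 6.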

Other observations

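Genes of the 4 related lists were also searched for the 7-base matches in the 3′ UTR. Of 24 PP2A genes searched, 4 held a match, of which PPP2R1A was called lower and ARPP19 higher. Of 12 SPFH and caveolar genes, 5 held one, with SDPR lower, PTRF higher and STOM, STOML1 and ERLIN2 not called. Of 23 adaptor and clathrin genes, 4 held one, and AP1G1 (which holds all 8 bases), EPN1 and EPS15 were called lower. Of 30 insertion genes, 4 held one, and SEC62 was lower while MMGT1, which holds all 8 bases, stood at a log2 fold change of -0.02 and was not called. The lowest log2 fold change among these carriers was that of SDPR, at -0.42. AP2M1, the lowest of the lists at -0.74, held none. Among all genes with a 7-base match 44.7% were called lower, and among those with the 8-base sequence 53.3%, against 31.2% of genes with none. The sequences were picked because transcripts with them were lower in these libraries, so nothing is read from these shares. Nor were the shares matched for 3′ UTR length. The list genes were looked at for matches after their values were seen.

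EMC10, a subunit of the ER membrane protein complex, was listed at 0 in all 6 libraries, as was PRKCDBP, a caveolar coat protein. STOML3 was likewise listed at 0 in all 6.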
